A study of Mus musculus with 7 samples.

Results

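The 4 Hox clusters of the mouse genome were examined in iMOP cells, for the peaks that 3 antibodies gave inside them by chromatin immunoprecipitation with sequencing (ChIP-seq). A peak was counted in a cluster if it overlapped HoxA at chr6:52100000-52220000, HoxB at chr11:96050000-96235000, HoxC at chr15:102745000-102875000 or HoxD at chr2:74495000-74610000, all in mm9 positions. Of 238420 peaks in 6 lists, 76 met this rule, 35 of them in HoxA, 9 in HoxB, 17 in HoxC and 15 in HoxD. The 500 kb on either side of each cluster held 675 peaks and served as the comparison.

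iMOP cells are immortalized multipotent otic progenitors, a mouse inner ear line made by expressing c-Myc from a retrovirus. All samples came from proliferating cells kept in suspension as otospheres with B27 supplement and 20 ng/ml bFGF, so every group shared the c-Myc transgene and the growth factor. The groups differed by antibody, with 2 biological replicates each for POLII (clone 4H8), C-MYC (N-262) and SOX2 (clone 6F1.2). The lists are called POLII 1, POLII 2 and so on. Peaks of the input DNA sample were not analysed here, and the identity of the cells could not be checked against marker genes in peak lists.

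Hox genes encode homeodomain transcription factors that give cells their position along the body axis. They lie in compact clusters, and genes nearer the 3′ end of a cluster are in general expressed earlier and further toward the head than genes at the 5′ end. Clusters that are not transcribed are commonly held silent by Polycomb complexes. POLII transcribes protein-coding genes, C-MYC binds E-box sequences at active promoters, and SOX2 is an HMG-box factor of stem and sensory progenitor cells. In the RefSeq gene order of GRCm38.p6 the clusters hold 39 Hox genes. The HoxA genes run toward Hoxa13 at the high-coordinate end, next to Evx1. The other clusters run the opposite way, with 10 genes from Hoxb13 to Hoxb1, 9 from Hoxc13 to Hoxc4 and 9 from Hoxd13 to Hoxd1.

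The E-box, the C-MYC motif, was looked for in the RefSeq promoter windows (250 bases before to 50 after a gene's start, GRCm38.p6), which covered 22 of the 39 Hox genes with 24 windows. The motif searched was CACGTG, which reads the same on both strands. It was in 5 of 24 Hox windows (20.8%) against 2349 of 32851 windows of all genes (7.15%). The motif contains a CpG (C followed by G). Hox windows had a median of 14.5 CpG and 57.7% GC, against 7 and 52.7% in all windows. The median was 17.5 CpG in HoxA and 20 in HoxD. Whether base composition accounts for the share was not tested. All 5 were HoxD windows, those of Hoxd1, Hoxd4, Hoxd10, Hoxd11 and Hoxd13, of 10 HoxD windows. None of 10 HoxA windows held it, which allows a share of up to 30%. HoxB and HoxC had only 3 windows and 1, too few to show a lack of the motif, and none held it. The 250 bases before the start of the genes at either end of HoxD are shown 5′ to 3′ on the plus strand, with the E-box in capitals.
Hoxd1: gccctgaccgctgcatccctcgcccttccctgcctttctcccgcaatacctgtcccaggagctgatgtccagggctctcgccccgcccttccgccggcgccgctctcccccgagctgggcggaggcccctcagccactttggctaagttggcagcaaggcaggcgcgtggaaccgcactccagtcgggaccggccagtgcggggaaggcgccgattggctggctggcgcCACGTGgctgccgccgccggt
Hoxd13: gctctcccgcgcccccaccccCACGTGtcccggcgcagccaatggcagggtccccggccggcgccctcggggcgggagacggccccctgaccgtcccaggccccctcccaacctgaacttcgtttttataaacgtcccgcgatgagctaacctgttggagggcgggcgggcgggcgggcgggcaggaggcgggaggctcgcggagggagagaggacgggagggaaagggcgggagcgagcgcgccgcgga
The SOX core searched, CATTGT or its reverse complement ACAATG, was in 0 of 24 Hox windows, which allows a share of up to 12.5%, and in 12.6% of all windows. These letters describe the promoters only. The peaks are in mm9 positions, so no peak was placed at a promoter or gene.

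The lists held 26637 to 53528 peaks, with 1705241 to 4488517 tags (sequenced fragments) in peaks. Each peak carries its number of tags, a fold enrichment over background and a score. The score is 10 times −log10 of the p-value, and the largest p-value kept in a list is 1e-05. The total of reads behind a list is unknown. POLII 1 stood apart from the other 5 lists: only 9.82% of its 53528 peaks overlapped a POLII 2 peak, and 24.0% overlapped a peak of any other list. It alone had no peak at the place of the ribosomal RNA gene Rn45s, where the other 5 lists had 1957 to 6094 tags. No value here checks its label, which is in doubt, and means for POLII include it. It also gave 31 of the 76 Hox peaks, so the means over lists and the counts of peaks and bins are given with and without it.

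In the map of peaks, HoxA was the cluster that carried most peaks of 5 of the 6 lists. POLII 2 had 8 of its 9 Hox peaks there (88.9%), C-MYC 1 had 8 of 14 (57.1%), C-MYC 2 had 8 of 10 (80.0%), SOX2 1 had 6 of 10 (60.0%) and SOX2 2 had both of its 2. HoxA makes up 21.8% of the length of the 4 clusters. POLII 1 had the reverse layout, with 3 of its 31 Hox peaks in HoxA (9.68%), 8 in HoxB, 10 in HoxC and 10 in HoxD. Without POLII 1, 32 of the remaining 45 peaks lay in HoxA and 13 in the other 3 clusters together. A place called in several lists counts more than once in these sums. With overlapping peaks merged, HoxA had 15 regions, 3 of them of POLII 1 alone. The other 3 clusters had 32 regions, 22 of them of POLII 1 alone.

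**Figure D1:**
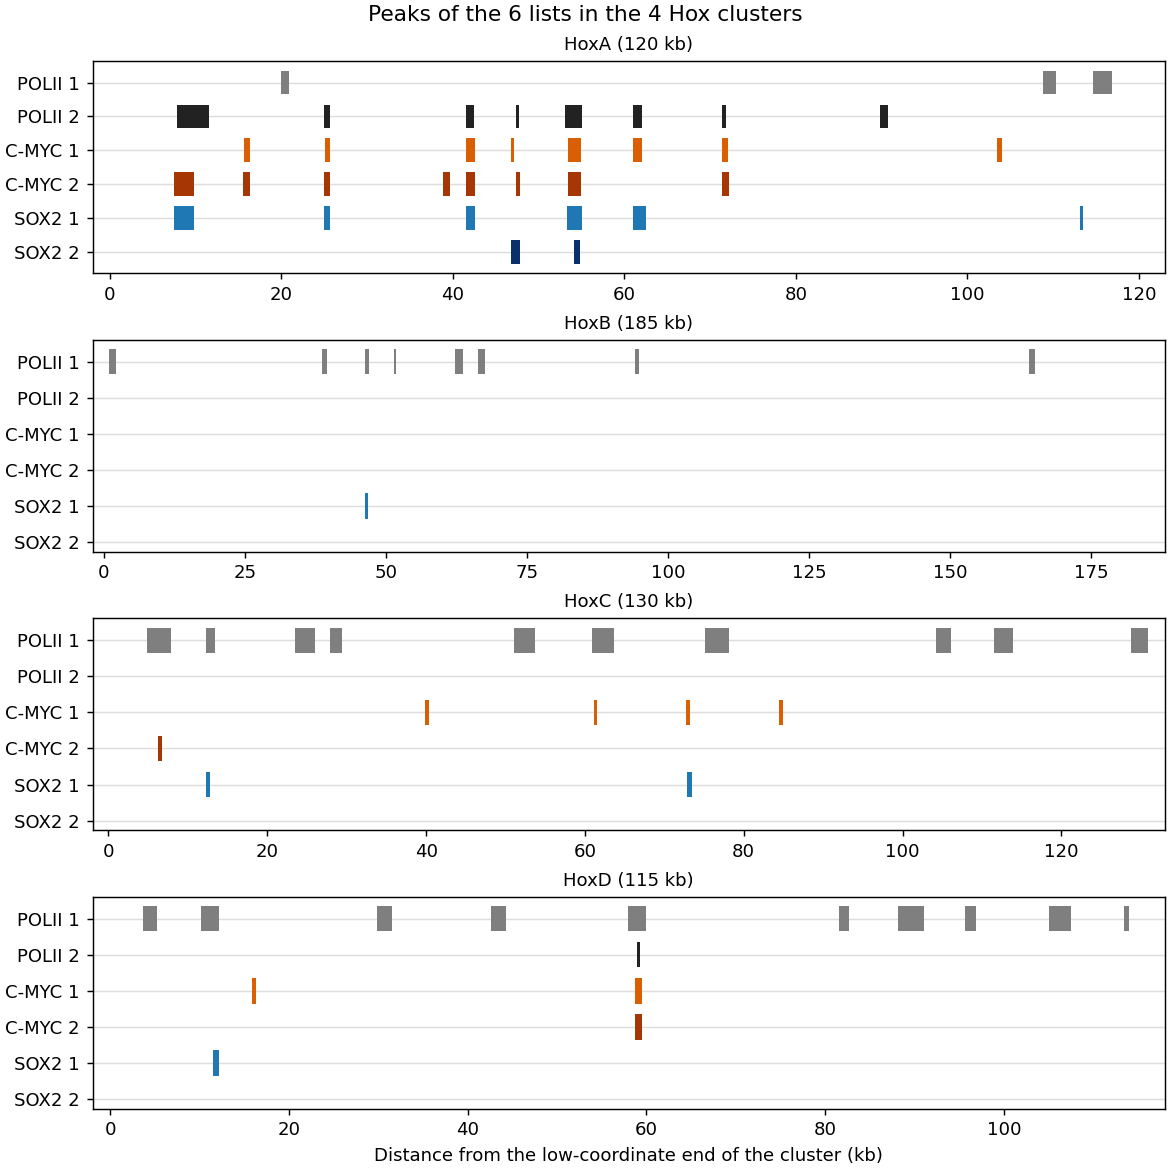
Peaks of the 6 lists in the 4 Hox clusters, with the distance from the low-coordinate end of the cluster in kb on the x axis and one row per list; a block spans a peak. POLII 2, C-MYC and SOX2 blocks stack in HoxA between about 7.52 and 71.3 kb, while HoxB has 1 block outside POLII 1 and POLII 1 blocks spread over HoxB, HoxC and HoxD.

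Within HoxA the peaks were denser than in the flanks in 5 of 6 lists. POLII 2, C-MYC 1 and C-MYC 2 each had 6.67 peaks per 100 kb in the cluster, against 1.70, 2.40 and 2.40 in the flanks. SOX2 1 had 5 against 2.90, and SOX2 2 had 1.67 against 1.5, a difference of less than 1 peak. POLII 1 had 2.50 against 4.40. The mean log2 ratio of cluster to flank density, with 0.5 added to each count, was 0.96 ± 0.95 (SD, n = 6 lists). An exact sign-flip permutation test over the lists (two-sided) gave p = 0.0938, or 0.125 after Benjamini-Hochberg adjustment over the 4 clusters. The smallest p this test can give with 6 lists is 0.0313. Without POLII 1 the mean was 1.28, and the exact test gave p = 0.0625, the smallest 5 lists can give.

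HoxB, the longest cluster, held fewer peaks than its flanks in all 6 lists. POLII 2, C-MYC 1, C-MYC 2 and SOX2 2 had none in 185 kb, which allows up to 1.62 peaks per 100 kb, against 1.90, 2.40, 2.30 and 1.40 in the flanks. SOX2 1 had 1 peak, or 0.541 per 100 kb against 1.70. POLII 1 had 8, or 4.32 against 4.70, and so hardly differed from its flanks. The mean log2 ratio was −2.12 ± 1.27 (SD, n = 6), with p = 0.0313 by the exact sign-flip test and 0.125 after adjustment, so it did not pass 0.05. Without POLII 1 it was −2.54. For SOX2 2 the flank density itself lies under what a count of 0 allows, so a lack of its peaks in HoxB was not detectable at this depth. Over the whole genome POLII 2, C-MYC 1, C-MYC 2 and SOX2 2 had 1.20, 1.61, 1.67 and 1.01 peaks per 100 kb. The limit of 1.62 lies above all of these but that of C-MYC 2.

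Against the flanks, HoxC differed between POLII 1 and the rest, while HoxD did not. In HoxC, POLII 1 had 7.69 peaks per 100 kb against 3.8 in the flanks. The other lists were below their flanks there: C-MYC 1 had 3.08 against 5.10, C-MYC 2 0.769 against 4.70 and SOX2 1 1.54 against 4.30, while POLII 2 and SOX2 2 had none, which allows up to 2.31, against 4.10 and 3. Over the whole genome these lists had 1.61, 1.67, 1.51, 1.20 and 1.01 in the same order, so the HoxC flanks were dense in peaks. Against the genome C-MYC 1 was higher in HoxC, SOX2 1 near it and C-MYC 2 lower. For POLII 2 and SOX2 2 the limit of 2.31 lies above the genome density. The mean log2 ratio in HoxC was −1.52 ± 1.66 (SD, n = 6; exact sign-flip p = 0.0938, adjusted 0.125), and −2.04 without POLII 1. In HoxD, POLII 1 had 8.70 peaks per 100 kb in the cluster and 8.70 in the flanks. Its log2 ratio of 0.06 lay within those of the other lists, from −0.79 for SOX2 2 to 1.35 for C-MYC 1. The other 5 lists had 0 to 2 HoxD peaks each and 0.6 to 1.20 peaks per 100 kb in the flanks, and the mean log2 ratio over 6 lists was 0.39 ± 0.77 (SD; exact sign-flip p = 0.281, adjusted 0.281), and 0.45 without POLII 1. SOX2 2 had no HoxD peak, which allows up to 2.61 per 100 kb. The HoxD mean turned to −0.25 with flanks of 1000 kb. Over the 4 clusters together the mean was −0.49 ± 0.71 (SD, n = 6; p = 0.0938, exact), below 0 in 5 of 6 lists, and −0.60 without POLII 1.

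**Figure D2:**
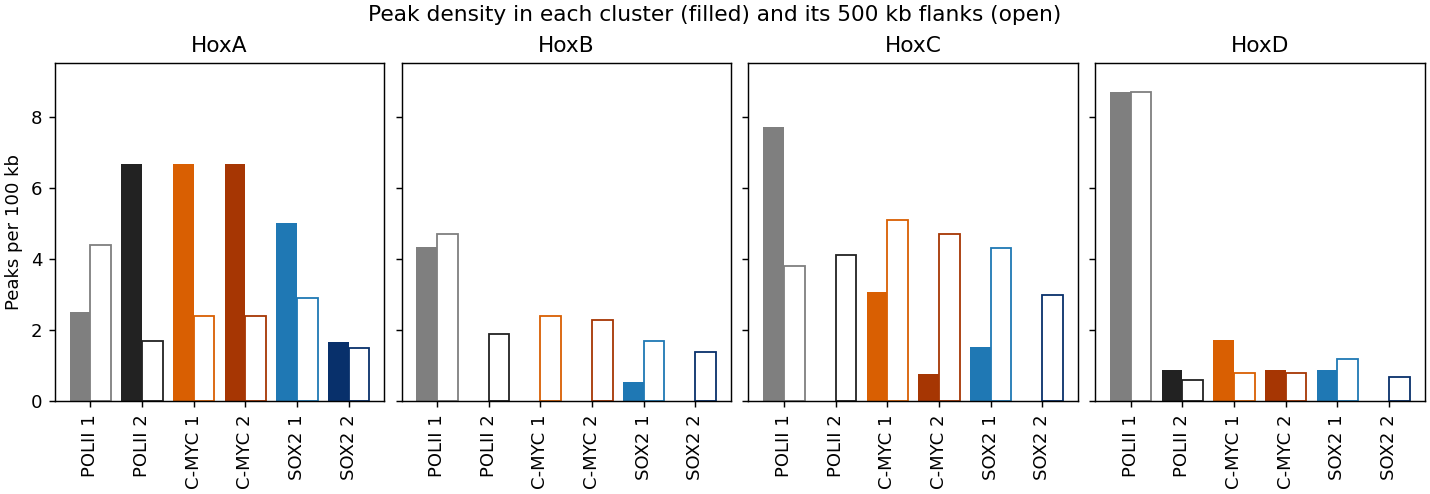
Peak density (peaks per 100 kb, linear axis from 0) of each list in each cluster (filled bars) and in its 500 kb flanks (open bars); a bar is 1 list, so there is no error bar. Filled bars exceed open ones in 5 of 6 lists in HoxA and in none in HoxB, and the tallest are those of POLII 1 in HoxC (7.69) and HoxD (8.70).

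By antibody, C-MYC had the smallest SD between replicates in each cluster. Its mean log2 ratio of cluster to flanks was 1.53 in both replicates in HoxA (8 peaks against 24 in each list), −3.15 ± 0.04 (SD, n = 2) in HoxB, −1.31 ± 1.04 in HoxC and 0.99 ± 0.52 in HoxD. SOX2 gave 0.65 ± 0.32, −1.77 ± 0.93, −2.08 ± 1.28 and −0.36 ± 0.60 in the same order. For POLII the SD exceeded the size of the mean in every cluster: 0.70 ± 1.86, −1.45 ± 1.98, −1.18 ± 3.18 and 0.53 ± 0.67. Over all 4 clusters the values were −0.10 ± 0.25 for POLII, −0.23 ± 0.28 for C-MYC and −1.14 ± 1.03 for SOX2. The HoxD value of C-MYC, which rests on 2 peaks and 1 peak, turned to −0.08 with flanks of 1000 kb and −0.34 with the 50% of peaks of highest score. That of HoxC went from −1.31 to as low as −3.88 by tags. In HoxB both C-MYC lists had 0 peaks, so the size of −3.15 is set by the 0.5 added to each count. Its SD reflects only the flank counts of 24 and 23, not agreement of peaks. With 1 added to each count it was −2.18. With 2 lists against 2 an exact permutation test cannot go below p = 0.333, and no other test between antibodies was run.

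Cut into 5 kb bins, the clusters make 110 bins of 528271 in the genome and their flanks 792. POLII 1 had a peak in 39 of the 110 (35.5%), against 27.9% of flank bins and 11.1% of all bins. Each of the other 5 lists had a lower share in the clusters than in the flanks, though POLII 2 and C-MYC 1 hardly differed from them. POLII 2 had 13 bins (11.8%), against 12.5% of the flanks and 6.94% of the genome. C-MYC 1 had 15 (13.6%), against 14.4% and 8.99%, and C-MYC 2 had 10 (9.09%), against 14.3% and 9.43%. SOX2 1 had 12 (10.9%), against 14.8% and 8.64%, and SOX2 2 had 2 (1.82%), against 9.47% and 5.82%. Against the genome the shares of POLII 2, C-MYC 1 and SOX2 1 were higher and those of C-MYC 2 and SOX2 2 lower. A peak of any list was in 57 bins (51.8%), against 45.6% of flank bins and 22.7% of all bins. Without POLII 1 it was 27 bins (24.5%), against 24.5% and 15.5%.

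Bins with a peak in both replicates numbered 2 for POLII (1.82%), against 3.41% of flank bins and 1.64% of all bins. C-MYC had 7 (6.36%), against 12.6% and 7.71%, and SOX2 had 1 (0.909%), against 6.19% and 3.78%. Of the 7 C-MYC bins 6 were among the 24 of HoxA (25.0%), where the flanks had 10.1%. None were among the 37 of HoxB, which allows up to 8.11%, against 12.6% of its flanks. None were among the 26 of HoxC, which allows up to 11.5%, against 23.7%. Both limits lie under the flank share but above the 7.71% of the genome. HoxD had 1 of 23 (4.35%), against 4.04% of its flanks.

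Overlapping peaks of the 6 lists were merged into 47 regions, numbered within each cluster from its low-coordinate end. HoxA had 15 regions, and the 6 regions that carried all 3 antibodies were all in it. Over the clusters these were 12.8% of regions, against 15.9% in the flanks and 19.7% in the genome. Regions of POLII 1 alone count in these totals, at 53.2%, 50.1% and 35.2% in the same order. The number of regions with all 3 antibodies fell to 0 without POLII 2 and to 2 without SOX2 1. It was also 0 where both replicates of each antibody were required. These 6 regions lay between 52107523 and 52162564. In HoxA 23 of the 32 peaks outside POLII 1 fell below the midpoint and 9 above it. These counts sum over lists, so a place called in several lists counts more than once. Per list it was 5 against 3 for POLII 2 and for C-MYC 1, and 7 against 1 for C-MYC 2. SOX2 1 had 4 against 2 and SOX2 2 had 2 against 0. The longest stretch of HoxA without a C-MYC or SOX2 peak was the 31.3 kb between 52172198 and 52203453. POLII 2 had a peak inside it, at 52189784-52190750. The HoxA flanks had 2.40 C-MYC peaks per 100 kb in each list, so so short a stretch cannot show a lack.

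HoxA region 8, at chr6:52153035-52155031, was the one region with a peak in 5 lists. Regions with 5 or more lists were thus 2.13% of the 47, against 11.2% in the flanks and 12.6% in the genome. POLII 2 had 195 tags at 11.5-fold enrichment. The C-MYC replicates were nearly alike, with 127 tags at 13.3-fold and 125 tags at 13.6-fold. SOX2 1 had 99 tags at 5.34-fold and SOX2 2 had 38 tags at 5.01-fold. The 5 summits lay within 76 bp. It was the only region of the 47 with both SOX2 replicates, and POLII 1 had no peak there.

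HoxA region 6, at chr6:52141566-52142591, had the highest enrichment of POLII 2 in the clusters, 15.9-fold with 189 tags, above 95% of the peaks of that list. SOX2 1 was also at its Hox maximum there, 14.1-fold with 100 tags, above 90.9% of its list. C-MYC 1 had 48 tags at 10.1-fold and C-MYC 2 had 61 tags at 12.85-fold. The 4 summits lay within 18 bp of each other. SOX2 2 had no peak in this region.

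HoxA region 1, at chr6:52107523-52111604, was the longest of all 47 regions at 4082 bp and had the most tags. POLII 2 had 650 tags, C-MYC 2 had 215 and SOX2 1 had 217, each above 93.6% or more of its list. Enrichment was low, at 5.57-, 4.39- and 5.01-fold, and the C-MYC value was above only 0.892% of its list. Neither C-MYC 1 nor SOX2 2 had a peak there.

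The other HoxA regions with both C-MYC replicates had fewer C-MYC tags than regions 6 and 8. Region 2, at chr6:52115533-52116382, was called by C-MYC alone, with 36 tags at 12.25-fold and 40 tags at 12.28-fold and summits 3 bp apart. Region 4, at chr6:52124969-52125737, had 15 and 21 C-MYC tags, 46 of POLII 2 and 31 of SOX2 1. Region 10, at chr6:52171341-52172198, had 25 and 30 C-MYC tags and 26 of POLII 2, with no SOX2. Region 7, at chr6:52146784-52147785, had 14 C-MYC 1 tags and 19 C-MYC 2 tags in peaks that did not overlap each other, joined by a SOX2 2 peak of 49 tags. Region 9, at chr6:52160962-52162564, held POLII 2, C-MYC 1 and SOX2 1 peaks of 59, 37 and 68 tags.

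**Figure D3:**
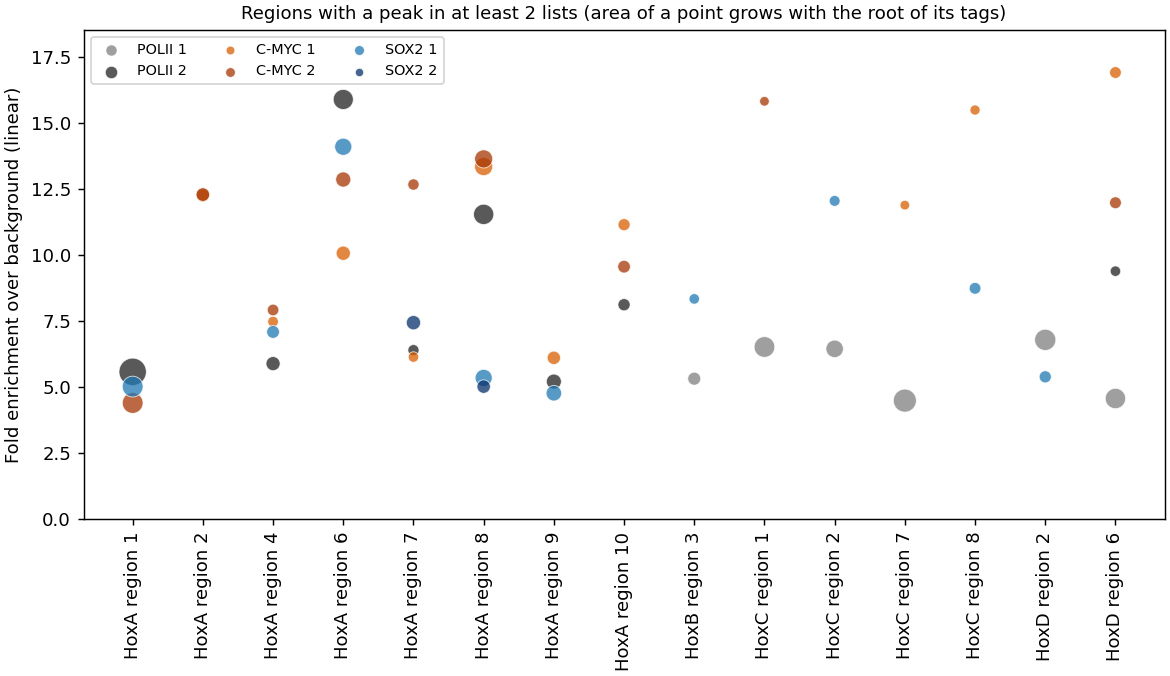
Fold enrichment over background (linear axis) of each peak in the 15 Hox regions with a peak in at least 2 lists; a point is 1 peak and its area grows with the square root of its tags. The highest POLII 2 points are those of HoxA regions 6 (15.9-fold) and 8 (11.5-fold), while outside HoxA 5 of 7 regions pair a POLII 1 point with 1 smaller point of another list.

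Outside HoxA, HoxD region 6 at chr2:74552948-74554929 had the most lists, with 4, and was the one Hox region with a peak of both POLII replicates. POLII 1 had 198 tags there at 4.56-fold and POLII 2 had 14 tags at 9.38-fold, with summits 837 bp apart. The C-MYC summits, at 74554054 and 74554049, lay near that of POLII 2 at 74554069. C-MYC 1 had 22 tags at 16.9-fold and C-MYC 2 had 23 tags at 11.97-fold. The 16.9-fold peak was the most enriched of all 76. The remaining HoxD factor peaks were 1 of C-MYC 1 with 10 tags and 1 of SOX2 1 with 25 tags.

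In HoxC, 1 region of 13 carried C-MYC and SOX2 together, region 8 at chr15:102817789-102818446, with 12 tags of C-MYC 1 at 15.5-fold and 22 tags of SOX2 1 at 8.73-fold. Regions 1, 2 and 7 paired a POLII 1 peak with C-MYC 2, SOX2 1 and C-MYC 1 respectively, at 10, 16 and 10 tags of the factor. In HoxB the single region with more than POLII 1 was region 3 at chr11:96096236-96096976, with 33 tags of POLII 1 and 14 of SOX2 1. Outside POLII 1, the 138 kb from there to the high-coordinate end of HoxB (74.7% of the cluster, the Hoxb1 side) held no peak. Factor peaks outside HoxA were thus small. The 6 of C-MYC 1 in HoxC and HoxD had a median of 10.5 tags at 13.3-fold. All 6 were under the list's median tags and over its median fold. Peaks of C-MYC 1 in HoxA had a median of 30.5 tags, with 5 of 8 also under the list's median tags and 2 over it.

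POLII 1 peaks in the clusters were long, rich in tags and low in fold next to the rest of their list. Their median length was 1610 bp, against 568 bp in the whole list and 619 bp in the flanks. Median tags were 136, against 23 and 32, and median fold 4.42, against 7.61 and 6.59. Per kb of peak the median was 87.8 tags, against 40.4 and 50.1. Of the 31 peaks, 29 were longer than the list's median, 30 had more tags and 30 had lower fold. In length, 25 of 31 (80.6%) reached 1000 bp, against 14.1% of the list. These peaks covered 17.0% of HoxC and 15.1% of HoxD, against 3.43% and 5.48% of their flanks. HoxA and HoxB stood near their flanks, with 3.96% against 3.41% and 4.17% against 4.32% covered. POLII 2, by contrast, covered 8.61% of HoxA against 1.28% of its flanks. Each POLII pattern rests on 1 library.

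**Figure D4:**
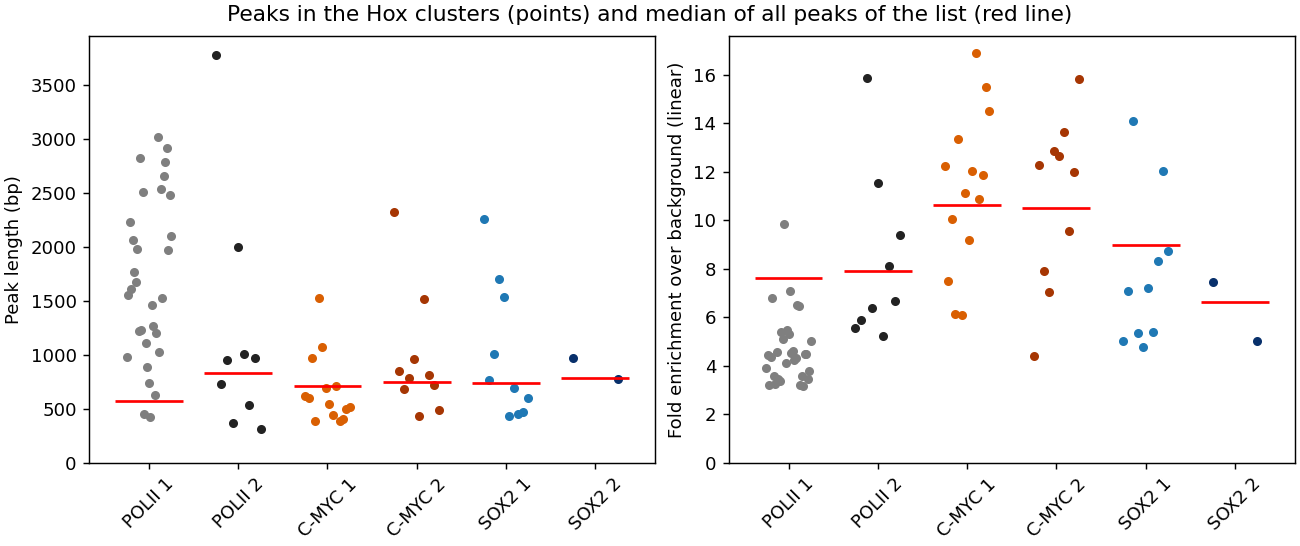
Length in bp (left) and fold enrichment over background (right) of each Hox peak by list, on linear axes; a point is 1 peak and the red line is the median of all peaks of that list. POLII 1 points sit mostly above the line in length (29 of 31) and below it in fold (30 of 31).

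Replicate peaks overlapped less in the clusters than the whole lists did for C-MYC 1. In the clusters 6 of 14 C-MYC 1 peaks (42.9%, exact 95% Clopper-Pearson interval 17.7 to 71.1) overlapped a C-MYC 2 peak, against 84.6% of that list. For C-MYC 2 it was 6 of 10 (60.0%, interval 26.2 to 87.8) against 81.1%, which lies inside the interval. HoxA gave 5 of 8 in each replicate. In the flanks the shares were 86.0% and 88.2%. For POLII, 1 of 31 and 1 of 9 peaks overlapped the other replicate, the same HoxD place, against 9.82% and 16.5% of the lists. For SOX2 it was 1 of 10 and 1 of 2, against 41.7% and 62.3%. These intervals cover counting error only.

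Across antibodies, 7 of the 47 regions held C-MYC and SOX2 (14.9%), against 21.4% of flank regions and 25.9% of regions genome-wide. In HoxA it was 6 of 15 (40%), against 21.4% of its own flanks, and the remaining 1 was in HoxC. Regions of POLII 1 alone were 20% of those in HoxA but 41.7% of those in its flanks, which lowers the flank share more. Without POLII 1, 7 of 22 cluster regions held C-MYC and SOX2. This cannot be set against the 21.4% and 25.9% above, which include regions of POLII 1 alone. In the flanks 78 of 365 regions held both factors, and 183 were of POLII 1 alone. Genome-wide it was 29892 of 115440, with 40660 of POLII 1 alone. POLII 2 peaks fell in 9 regions, of which 8 also held a C-MYC or SOX2 peak (88.9%), near the 80.7% of the flanks and the 84.8% of the genome. POLII 1 was alone in 25 regions (53.2%), against 50.1% of flank regions and 35.2% of regions genome-wide. Of its 31 Hox peaks 6 (19.4%) overlapped any other list, against 24.0% of the list, and none of its 3 HoxA peaks did. No region held all 6 lists, against 2.74% of flank regions and 2.25% of regions genome-wide. At such shares 0 of 47 does not show a lack. Peak calls give the place of signal over background; transcript levels of the Hox genes were not measured in these samples.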

How the data were processed

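ChIP-seq peak lists of iMOP cells were used as deposited, 1 for each of 2 replicates of POLII, C-MYC and SOX2. The authors deposited peaks per sample, and the columns carry the names MACS gives them. The deposited values are tag counts per peak, a score of 10 times −log10 of the p-value and a fold enrichment, a linear ratio over background. The submitters' processing notes name mm9. The aligner, caller settings, control and filters are not given in the sources used here. A list keeps only peaks that were called, so signal under the limit is not seen. Gene order and promoters came from RefSeq (GRCm38.p6); since 247 peaks lie beyond the last GRCm38 gene of chromosome 1, no coordinate was joined to them.

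Peaks overlapping a cluster by 1 bp were counted, and densities were compared with flanks of 500 kb as log2 ratios with 0.5 added to each count. The main test was an exact two-sided sign-flip test over the 6 lists, adjusted by Benjamini-Hochberg over the 4 clusters. The lists come from the same cells, so they are not independent samples of a condition. Regions were merged across lists. Described in full were those with both replicates of an antibody and, per cluster, the one with most lists; HoxA regions 1 and 9 and single HoxC and HoxD peaks were named after their values were seen. Some of the gene order is not reported here. The clusters and measures were chosen with earlier results of these data known. Alternatives were other flanks, bounds, bins, pseudocounts, stricter peaks, equal list sizes, covered bases or tags, and leaving out each replicate. Tags in peaks ranged from 1705241 to 4488517. Intervals are 95% Clopper-Pearson intervals, and a count of 0 was taken to allow 3. Scripts were tested on simulated data and used Python 3.11.15, pandas 2.3.3, scipy 1.17.1 and bedtools 2.31.1.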

Additional observations from a re-analysis of the deposited data

How the results depend on the processing

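Of 156 alternative values of the main results, 130 were counted as the same, 25 as moved and 1 as reversed. For clusters against flanks over the lists, this meant the same sign and side of 0.05, whatever the size. HoxC, for example, went from −1.52 to −2.77 by tags and counted as the same. Values by antibody had to stay within the SD between replicates, bins and overlaps within the Clopper-Pearson interval, and region counts within a set ratio. Replicate blocks were counted as the same without a check. The reversal was HoxD against its flanks, at −0.25 (log2) with flanks of 1000 kb. Cluster against flanks over all 4 clusters moved for POLII to −0.39 with the 50% of peaks of highest score, 0.50 by bases covered and 0.60 by tags, and for C-MYC to −1.49, −0.98 with 26637 peaks from every list, and −1.30 by tags. In bins, a peak in either replicate gave 45.5% for POLII, 16.4% for C-MYC and 11.8% for SOX2, the top 50% of peaks gave 0, 1.82 and 0% in both replicates, and 1 kb bins gave 2.18% for C-MYC. With the top 50%, replicate overlap was 0% for POLII 1, POLII 2, SOX2 1 and SOX2 2 (24, 2, 5 and 1 peaks left) and 100% of 2 peaks for C-MYC 1. Requiring both replicates left 7 regions, 1 with C-MYC and SOX2 and 0 with all 3 antibodies. Leaving out 1 replicate gave −0.60 to −0.21 for all clusters, 0.75 to 1.28 for HoxA, −2.54 to −1.91 for HoxB, −2.04 to −1.14 for HoxC and 0.19 to 0.62 for HoxD. By antibody the ranges were −0.27 to 0.08 for POLII, −0.42 to −0.03 for C-MYC and −1.87 to −0.41 for SOX2. Regions numbered 22 (without POLII replicate 1) to 48, those with C-MYC and SOX2 2 to 7, and those with all 3 antibodies 0 (without POLII replicate 2) to 6, with 2 and 2 without SOX2 replicate 1. By antibody and cluster, signs changed for C-MYC in HoxD with flanks of 1000 kb (−0.08) and the top 50% of peaks (−0.34), for SOX2 in HoxD with 1 added to each count (0.27) and without SOX2 replicate 2 (0.06), and without POLII replicate 2 for POLII in HoxA (−0.61) and HoxC (1.07). Causes of these moves were not tested. The labels do not say that a replicate number marks a shared culture. With a replicate block C-MYC minus SOX2 was 0.91, C-MYC minus POLII −0.13 and SOX2 minus POLII −1.04. These means equal the unpaired ones by construction, and no test was run on them. Their SD went from 1.07 to 0.75, from 0.38 to 0.03 and from 1.06 to 0.78 in that order. The number of lists, the small counts per cluster and the unknown read depth limit all comparisons.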
